A study of Rattus norvegicus with 12 samples.

Results

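Chemokine ligands are small secreted or membrane-anchored proteins, and 10 of them were followed across the 4 groups of this study: Ccl2, Ccl5, Ccl7, Ccl20, Cxcl1, Cxcl2, Cxcl10, Cxcl12, Cxcl16 and Cx3cl1. They were taken from the deposited gene table by symbol and are 10 of its 22081 genes. All 10 had enough reads to enter the test, which covered 14825 genes. Poly(A) RNA was sequenced from primary aortic smooth muscle cells of the Wistar rat, at passages 5 to 8, grown in medium with 20% serum and starved of serum for 24 h before the experiment. The cells were wild type (WT) or a Tsp1 knockout (Tsp1 KO), made with a plasmid carrying Cas9, GFP and a guide to Thbs1, the gene for thrombospondin-1, a secreted matrix glycoprotein. GFP-positive cells were sorted and cloned from single cells. The wild-type cells are not described as having been through the same sorting and cloning, and the number of clones is not given, so that a difference between clones and an effect of the mutation cannot be told apart. Each genotype was kept static or put through uniaxial cyclic stretch of 20% strain at 1.0 Hz, 60 cycles/min, for a time that the labels do not give. Each of the groups WT static, WT stretch, Tsp1 KO static and Tsp1 KO stretch had 3 libraries, numbered 1 to 3. Separate cultures are not stated for the libraries of 1 group, and the p-values therefore measure only their spread, which may be technical.

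Chemokines guide leukocytes along gradients by binding G protein-coupled receptors, and they are held on cell surfaces and in matrix by heparan sulfate. In human and mouse, Ccl2 and Ccl7 attract monocytes through CCR2, Ccl5 attracts monocytes and T cells, and Ccl20 signals through CCR6. Cxcl1 and Cxcl2 attract neutrophils through CXCR2, Cxcl10 attracts activated T cells through CXCR3 and is a classic target of interferon, and Cxcl12 signals through CXCR4 while the atypical receptor ACKR3 removes it. Cxcl16 and Cx3cl1 are made as transmembrane proteins, act as adhesion molecules, and are released by the proteases ADAM10 and ADAM17. Inflammatory chemokines such as Ccl2 and Cxcl1 are induced by NF-kB in vascular smooth muscle, whereas Cxcl12 is largely constitutive.

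The libraries held 16766965 to 38024110 exon reads. The level of Thbs1 itself was 446 to 626 RPKM (reads per kilobase of exon, scaled to the depth of the library) in WT static, 220 to 335 in WT stretch, 97.3 to 128 in Tsp1 KO static and 62.2 to 86.8 in Tsp1 KO stretch, so both knockout groups lay below both wild-type groups without reaching 0. Libraries numbered 3 had 9.15 to 11.3% of their gene reads in introns, against 14.8 to 16.5% in the libraries numbered 1 and 2. In Tsp1 KO stretch library 3, 16.4% of exon reads crossed an exon junction and 83.1% mapped uniquely, against at least 28.1% and 86.5% in the other libraries. Markers of smooth muscle summed to 1560 to 3450 RPKM over all libraries, most of it Acta2 and Tagln. Myh11, Myocd, Mylk, Des and Actg2 had group means of at most 3.67 RPKM. Of 12 leukocyte markers, 11 (Ptprc among them) stayed below 1 RPKM in every library, Cd14 being the exception. Of 7 endothelial markers 6 did, all but Tek.

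Several of the ligands lie side by side in the genome (Rnor_6.0, from the deposited table). Ccl2 (chr10:69412016-69413870) is followed by Ccl7 (chr10:69423085-69424979) after 9214 bases. Cxcl2 (chr14:18731377-18733391) and Cxcl1 (chr14:18743684-18745457) are 10292 bases apart. Cxcl10 (chr14:17210732-17212930) lies 12440 bases from Cxcl11 and inside the span of Art3, a gene with 0 to 6 exon reads in a library. Cxcl16 (chr10:57060006-57064600) overlaps Zmynd15 by 120 bases, and the labels do not say whether strand was used in counting. Cx3cl1 (chr19:10644243-10653800) lies between Ccl17, 23571 bases away, and Ccl22, 20387 bases away. Ccl5 (chr10:70739799-70744315) is 39107 bases from Ccl9, beyond which lie Ccl6, Ccl3 and Ccl4. Cxcl12 (chr4:149261043-149273891) and Ccl20 (chr9:88918432-88921001) share their chromosomes with none of the other ligands listed here.

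RefSeq promoters of the GRCr8 build were given for 8 of the 10 ligands. The 250 bases before the start of transcription are printed 5′ to 3′ on the strand of the gene for the neighbours Cxcl1 and Cxcl2, whose levels differed widely, for the CC ligand Ccl7, for Cxcl10, and for Cx3cl1 and Cxcl12, which differed between the genotypes in opposite directions. Capitals mark matches on either strand to the NF-kB motif, to the interferon response element (ISRE, GAAA, any 2 bases and GAAA again) and to the AP-1 motif (TGACTCA). The regions are chr14:17479322-17479571 (minus strand) for Cxcl1, chr14:17467256-17467505 (minus) for Cxcl2, chr10:67513845-67514094 (plus) for Ccl7, chr14:15988816-15989065 (plus) for Cxcl10, chr19:10242821-10243070 (minus) for Cx3cl1 and chr4:152060531-152060780 (plus) for Cxcl12.
Cxcl1: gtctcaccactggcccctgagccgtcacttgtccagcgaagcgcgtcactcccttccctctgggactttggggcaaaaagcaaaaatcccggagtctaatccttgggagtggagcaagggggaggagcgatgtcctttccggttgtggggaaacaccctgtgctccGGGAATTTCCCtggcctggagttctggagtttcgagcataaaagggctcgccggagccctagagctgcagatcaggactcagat
Cxcl2: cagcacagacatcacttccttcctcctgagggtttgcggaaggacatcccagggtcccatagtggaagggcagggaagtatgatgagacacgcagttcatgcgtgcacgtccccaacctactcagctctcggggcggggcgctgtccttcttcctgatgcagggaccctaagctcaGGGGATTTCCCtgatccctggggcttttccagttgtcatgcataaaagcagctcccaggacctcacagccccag
Ccl7: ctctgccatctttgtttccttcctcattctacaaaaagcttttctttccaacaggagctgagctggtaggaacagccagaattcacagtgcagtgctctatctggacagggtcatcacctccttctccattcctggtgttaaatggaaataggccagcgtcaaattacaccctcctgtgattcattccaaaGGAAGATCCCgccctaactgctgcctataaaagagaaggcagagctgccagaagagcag
Cxcl10: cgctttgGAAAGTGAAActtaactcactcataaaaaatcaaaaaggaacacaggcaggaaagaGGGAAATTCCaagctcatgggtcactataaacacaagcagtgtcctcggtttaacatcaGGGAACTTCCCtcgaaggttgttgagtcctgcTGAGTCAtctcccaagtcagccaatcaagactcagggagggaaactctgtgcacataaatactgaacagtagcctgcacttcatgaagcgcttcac
Cx3cl1: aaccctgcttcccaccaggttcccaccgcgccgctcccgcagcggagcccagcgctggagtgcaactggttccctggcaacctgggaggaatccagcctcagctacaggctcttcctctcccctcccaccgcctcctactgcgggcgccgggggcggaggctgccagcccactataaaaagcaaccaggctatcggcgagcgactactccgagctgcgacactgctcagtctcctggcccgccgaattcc
Cxcl12: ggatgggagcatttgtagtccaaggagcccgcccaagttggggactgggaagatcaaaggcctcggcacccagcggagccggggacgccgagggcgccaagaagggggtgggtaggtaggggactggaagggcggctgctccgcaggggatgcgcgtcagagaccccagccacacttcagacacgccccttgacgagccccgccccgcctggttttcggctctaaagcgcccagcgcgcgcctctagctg

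An NF-kB match was present in 5 of the 8 promoters, those of Ccl7, Ccl20, Cxcl1, Cxcl2 and Cxcl10, where 6.33% of 33469 rat promoters of the same length held one. Cxcl1 carried GGGAATTTCCC from 84 to 74 bases before its start, and Cxcl2 carried GGGGATTTCCC from 74 to 64 bases before its own. The match of Ccl7 lay 59 to 50 bases upstream. Cxcl10 had a pair of NF-kB matches, at 187 to 178 and 128 to 118 bases, an ISRE match at 243 to 234 bases (3.41% of promoters held one) and an AP-1 match at 96 to 90 bases (4.05% of promoters). The cyclic AMP response element TGACGTCA, present in 1.59% of promoters, was in none of the 8. The windows of Cxcl12, Cxcl16 and Cx3cl1 held none of the motifs searched. These matches describe the letters of the windows and no factor was measured on them.

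Per length of exon, Cxcl12 was the most abundant of the ligands in wild-type cells, and Cxcl1 and Ccl2 stood level with it or above it in knockout cells. In WT static the order of mean RPKM was Cxcl12 (199), Ccl2 (24.4), Cxcl1 (19.2), Cxcl10 (14.2), Cxcl16 (10.9), Ccl7 (10.2), Cx3cl1 (4.24), Ccl5 (1.72), Ccl20 (0.678) and Cxcl2 (0.179). The ranges of neighbours from Ccl2 to Ccl7 in that order overlapped, and the other neighbours were apart. In WT stretch Cxcl12 (132) was followed by Cxcl10 (29.8) and Ccl2 (29.2), whose ranges overlapped, and then by Cxcl1 (16.0) and Cxcl16 (14.8), which overlapped as well. In Tsp1 KO static Cxcl1 (158) lay above Cxcl12 (140.0) and Ccl2 (133), which overlapped, and Cxcl10 (55.6) and Ccl7 (50.6) overlapped, as did Cx3cl1 (28.7) and Cxcl16 (23.5). In Tsp1 KO stretch Ccl2 (147) and Cxcl1 (131) overlapped and lay above Cxcl12 (104), followed by Ccl7 and Cxcl10 (54.6 each), Cx3cl1 (29.6) and Cxcl16 (27.3). Ccl5, Ccl20 and Cxcl2 were the 3 lowest in every group.

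The summed level of the 10 ligands was 267 to 313 RPKM in WT static, 215 to 275 in WT stretch, 556 to 642 in Tsp1 KO static and 500 to 625 in Tsp1 KO stretch. Cxcl12 made up 67.2 to 72.7% of that sum in WT static, 52.1 to 58.3% in WT stretch, 22.5 to 25.3% in Tsp1 KO static and 17.3 to 21.3% in Tsp1 KO stretch. The share of Cxcl12 was thus lower with stretch and with the knockout, and no range of that share overlapped another. In static cells the mean level of Cxcl12 itself was 199 RPKM in wild type and 140 in the knockout, while the summed level was higher in the knockout. In these bulk samples fewer cells making a chemokine and less of its RNA in each cell cannot be told apart.

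**Figure D1:**
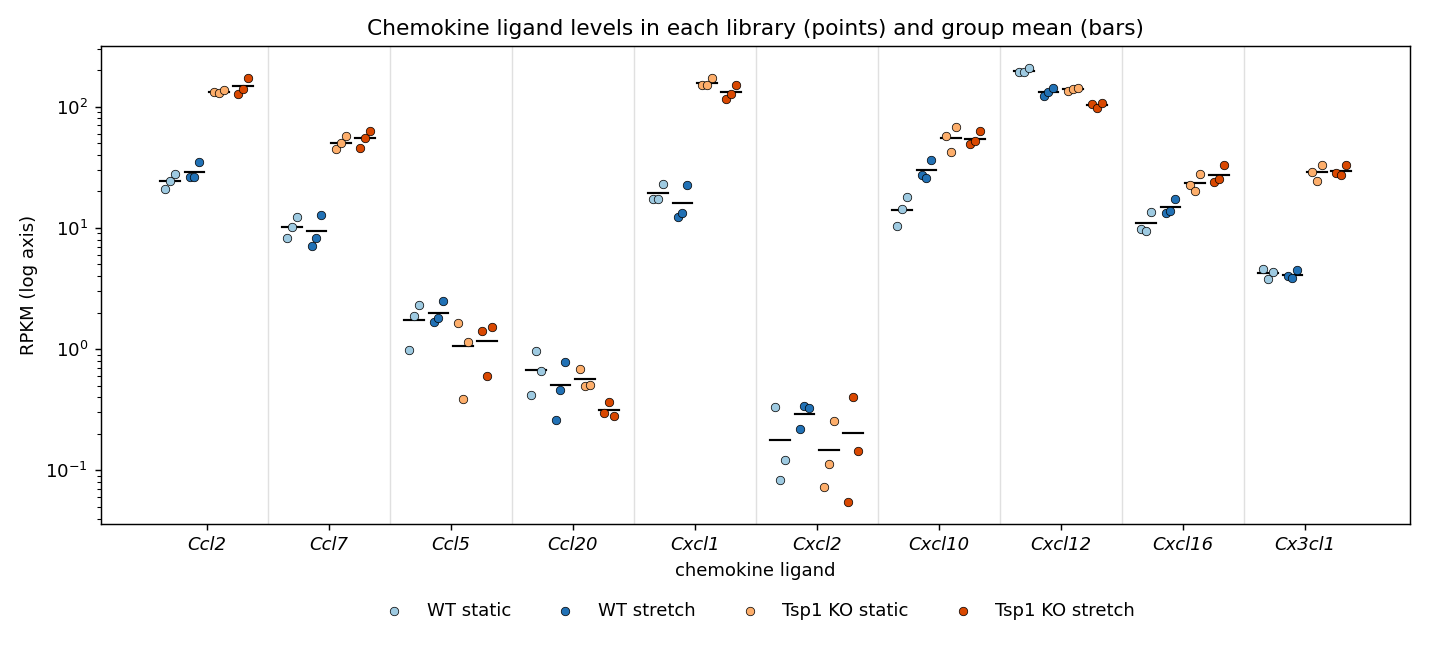
Level of each chemokine ligand (RPKM, log axis) in every library of the 4 groups; each point is a library and each short bar the mean of 3. Ccl2, Ccl7, Cxcl1, Cxcl10, Cxcl16 and Cx3cl1 lie higher in both knockout groups, Cxcl12 lies lower, and Ccl5, Ccl20 and Cxcl2 stay at or below 2.5 RPKM throughout.

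The comparison of Tsp1 KO static with WT static asks which ligands differ with the genotype in unstretched cells. Of the 10 ligands, 6 were higher and 1 was lower at a false discovery rate (FDR) under 0.05 in edgeR's quasi-likelihood test, in which 20.8% of all tested genes passed (12.1% higher and 8.66% lower). The 6 were Ccl2, Ccl7, Cxcl1, Cxcl10, Cxcl16 and Cx3cl1, and the 1 was Cxcl12. The median log2 fold change of the 10 was 1.52, against 0.01 over all genes tested. On the scale of TMM-normalized read counts (CPM), the same 6 had knockout ranges wholly above the wild-type ranges (18.9% of all genes did) and Cxcl12 a range wholly below (15.9%).

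The monocyte attractants Ccl2 and Ccl7 both rose. Ccl2 had 21, 24.3 and 27.9 RPKM in WT static libraries 1, 2 and 3, and 131, 129 and 138 in Tsp1 KO static. Every knockout library lay far above every wild-type one, and the spread within a group was small beside the gap. Ccl2 rose by 2.43 on the log2 scale (SE 0.12, FDR 1.45e-07), a fold of 5.37. Its neighbour Ccl7 had 8.20, 10.1 and 12.4 RPKM in WT static against 44.6, 49.8 and 57.4 in Tsp1 KO static, again without overlap, and rose by 2.29 (SE 0.19, FDR 6.18e-06). The ratio of the Ccl2 level to the Ccl7 level was 2.25 to 2.56 in WT static, 2.74 to 3.72 in WT stretch, 2.40 to 2.93 in Tsp1 KO static and 2.54 to 2.81 in Tsp1 KO stretch. The WT stretch range lay wholly above that of WT static, and every other pair of ranges overlapped.

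The neutrophil attractants Cxcl1 and Cxcl2 parted. Cxcl1 had 17.2, 17.3 and 23.2 RPKM in WT static and 151, 150 and 171 in Tsp1 KO static. It showed the largest log2 fold change of the 10 ligands, 3.02 (SE 0.20, FDR 8.47e-07), a fold of 8.09, and no knockout library overlapped a wild-type one. Cxcl2, next to it in the genome and with its own NF-kB match in the promoter, was near the detection limit: it had 0.332, 0.0828 and 0.121 RPKM in WT static and 0.0722, 0.112 and 0.253 in Tsp1 KO static, from 2 to 14 reads in a library over all groups. The groups overlapped and Cxcl2 did not pass the test (-0.30, SE 0.72, FDR 0.852). With so few reads, the standard error was several times that of Cxcl1, and only a large difference in Cxcl2 could have been detected.

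Of the transmembrane ligands, Cx3cl1 had 4.62, 3.76 and 4.34 RPKM in WT static and 28.8, 24.2 and 33.1 in Tsp1 KO static. It rose by 2.73 (SE 0.12, FDR 4.44e-08), a fold of 6.63, with no overlap. Cxcl16 had 9.86, 9.48 and 13.5 RPKM in WT static and 22.6, 20.2 and 27.8 in Tsp1 KO static. The rise of Cxcl16 was smaller, 1.08 (SE 0.15, FDR 0.000234), a fold of 2.12, and again every knockout library lay above every wild-type library.

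Cxcl10 had 10.3, 14.2 and 18.0 RPKM in WT static and 57.0, 41.9 and 67.9 in Tsp1 KO static, and rose by 1.95 (SE 0.20, FDR 2.32e-05). The groups were apart, although both spread more widely than those of Ccl2 or Cx3cl1. Most Cxcl10 reads matched another place in the genome as well: 40.2 to 46.7% of its exon reads were unique in 11 libraries. On unique reads alone the difference was 2.04 (SE 0.43, FDR 0.00446). Cxcl12 was the ligand that went the other way, with 194, 192 and 210 RPKM in WT static and 135, 141 and 144 in Tsp1 KO static. It fell by 0.53 (SE 0.08, FDR 0.000513), a fold of 1.44, and the groups did not overlap.

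The T cell and dendritic cell attractants Ccl5 and Ccl20 stayed low. Ccl5 had 0.98, 1.87 and 2.32 RPKM in WT static and 1.63, 0.385 and 1.15 in Tsp1 KO static, from 7 to 51 reads in a library over all groups. Its log2 fold change was -0.73 (SE 0.48, FDR 0.367) with overlapping groups. Ccl20, with 7 to 23 reads in a library, gave -0.27 (SE 0.40, FDR 0.737). Ccl20, like Cxcl1, had an NF-kB match in its promoter. The 7 calls of this comparison all held when any 1 of the 12 libraries was left out.

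**Figure D2:**
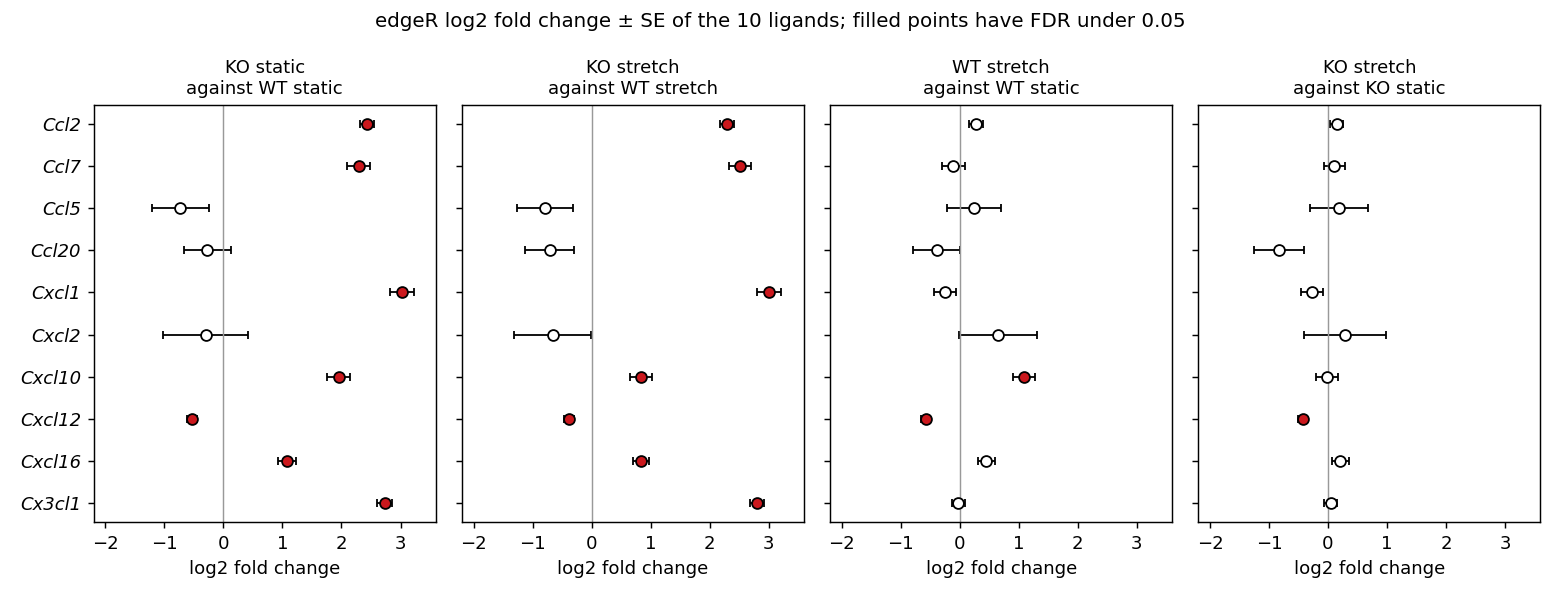
Log2 fold change of each ligand with its standard error in the 4 pairwise comparisons, from edgeR; filled points passed an FDR of 0.05. Between genotypes 7 of 10 points are filled in both conditions, and between stretch and static only Cxcl10 and Cxcl12 in wild-type cells and Cxcl12 in knockout cells are filled.

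Under stretch the genotypes differed in the same 7 ligands. Tsp1 KO stretch against WT stretch gave 6 higher and 1 lower, with 20.6% of all genes passing (11.9% higher, 8.73% lower), and the median log2 fold change of the 10 was 0.84, against a median of -0.00 over all genes. This comparison uses other libraries than the static one, in the same fit. Ccl2 had 26.5, 26.3 and 34.7 RPKM in WT stretch and 128, 141 and 173 in Tsp1 KO stretch, and rose by 2.30 (SE 0.12, FDR 1.84e-07). Ccl7 had 7.13, 8.26 and 12.7 RPKM in WT stretch and 45.6, 55.7 and 62.7 in Tsp1 KO stretch, a rise of 2.51 (SE 0.19, FDR 3.13e-06). Neither pair of groups overlapped.

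Cxcl1 had 12.2, 13.2 and 22.5 RPKM in WT stretch and 116, 127 and 151 in Tsp1 KO stretch. Its rise of 3.00 (SE 0.20, FDR 8.63e-07) was again the largest among the ligands. Cx3cl1 had 4.02, 3.85 and 4.48 RPKM in WT stretch and 28.6, 27.4 and 32.8 in Tsp1 KO stretch, and rose by 2.80 (SE 0.12, FDR 3.76e-08). Cxcl16 had 13.3, 13.7 and 17.3 RPKM against 24.0, 25.1 and 32.9, and rose by 0.84 (SE 0.14, FDR 0.00131). All 3 ligands were apart between the genotypes. In normalized CPM 6 of the 10 ligands lay higher without overlap in this comparison, as did 18.2% of all genes.

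Cxcl10 had 27.2, 25.7 and 36.5 RPKM in WT stretch and 49.4, 51.7 and 62.6 in Tsp1 KO stretch. The groups were still apart, and the rise of 0.84 (SE 0.19, FDR 0.00802) passed the test, but it was lost on unique reads (0.36, SE 0.41, FDR 0.626). In Tsp1 KO stretch library 3 only 8.79% of the Cxcl10 exon reads were unique, and without that library the unique reads gave 0.79 (SE 0.20, FDR 0.0168), an alternative added after the data were seen. The call was also lost without WT stretch library 2 (FDR 0.0606). Cxcl12 had 122, 131 and 143 RPKM in WT stretch and 106, 97.8 and 108 in Tsp1 KO stretch, and fell by 0.38 (SE 0.08, FDR 0.00452) with the groups apart.

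Of the 3 low ligands, Ccl5 had 1.66, 1.81 and 2.50 RPKM in WT stretch and 1.40, 0.596 and 1.51 in Tsp1 KO stretch. Its ranges were apart (as were 15.4% of all genes in the lower direction), though it did not pass the test (-0.79, SE 0.47, FDR 0.299). Ccl20 gave -0.71 (SE 0.42, FDR 0.300) and Cxcl2 -0.66 (SE 0.65, FDR 0.576), both with overlapping groups.

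Stretch of wild-type cells asks which ligands respond to the mechanical load itself. At an FDR under 0.05 Cxcl10 rose and Cxcl12 fell, 2 of 10 ligands, where 0.742% of all genes passed (0.277% higher, 0.465% lower). Cxcl10 had 10.3, 14.2 and 18.0 RPKM in WT static and 27.2, 25.7 and 36.5 in WT stretch, so that every stretched library lay above every static one. The difference was 1.09 on the log2 scale (SE 0.19, FDR 0.0278), a fold of 2.13, and was 1.39, 0.88 and 1.04 between the libraries numbered 1, 2 and 3. On unique reads the size was the same, 1.10 (SE 0.42), but the call was lost (FDR 0.403). Without Tsp1 KO stretch library 3, which shares in the estimate of spread though not in the comparison, unique reads gave 1.10 again (SE 0.19, FDR 0.0225). The call on all reads was lost without any 1 of WT static libraries 1 and 2, the 3 WT stretch libraries, Tsp1 KO static library 1 or Tsp1 KO stretch library 2, with FDR values of at most 0.113.

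**Figure D3:**
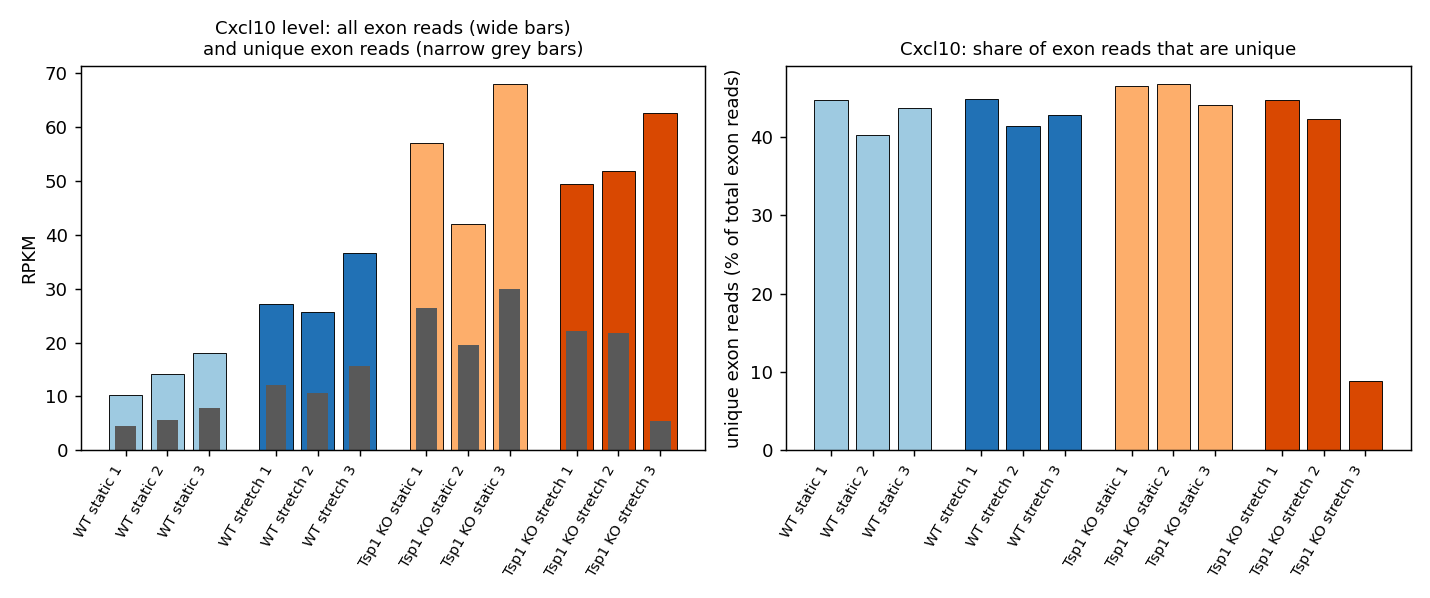
Cxcl10 in each library: left, RPKM from all exon reads (wide bars, coloured by group) and from unique exon reads (narrow grey bars); right, the share of its exon reads that are unique. All bars start at 0; the share is 40.2 to 46.7% in 11 libraries and 8.79% in Tsp1 KO stretch library 3.

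Cxcl12 had 194, 192 and 210 RPKM in WT static and 122, 131 and 143 in WT stretch. The groups were far apart, and Cxcl12 fell by 0.58 (SE 0.08, FDR 0.00891), a fold of 1.49, with differences of -0.67, -0.53 and -0.53 between the libraries numbered 1, 2 and 3. The call was lost without WT stretch library 1 or 2 (FDR at most 0.0698). The authors' deposited table gives the same directions for both ligands, with a fold of 2.14 and an FDR of 0.000766 for Cxcl10 and a fold of -1.48 and an FDR of 0.106 for Cxcl12, so that there only Cxcl10 passes. Cxcl16 lay higher in every WT stretch library (13.3, 13.7 and 17.3 RPKM) than in the WT static libraries of the same number (9.86, 9.48 and 13.5), but the ranges overlapped on this scale and it did not pass the test (0.45, SE 0.14, FDR 0.262). With the library number as a block, a fit that allows each numbered set its own level, the Cxcl16 difference of 0.46 passed (SE 0.07, FDR 0.00178), which brought the count to 3 where 6.37% of all genes passed. Ccl2 was 0.28 higher (SE 0.12, FDR 0.473) and did not pass with the block either (FDR 0.0660).

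None of the chemokines with the largest genotype differences, Cxcl1, Cx3cl1, Ccl2 and Ccl7, passed with stretch of wild-type cells in the fit of all 12 libraries. The value of Ccl2 was the 0.28 given above. The log2 difference of WT stretch from WT static was -0.25 for Cxcl1 (SE 0.19, FDR 0.811), -0.11 for Ccl7 and -0.03 for Cx3cl1 (SE 0.11, FDR 0.993), with overlapping groups for all 3. On the scale of normalized CPM, groups that did not overlap were found for 3 ligands in the higher direction, Ccl2, Cxcl10 and Cxcl16 (6.92% of all genes), and for Cxcl12 in the lower (8.49%). With the libraries numbered 1 and 2 only, Cxcl1 passed as lower (-0.43, FDR 0.0143) and Cxcl16 as higher (0.49, FDR 0.00932), which brought the count to 4.

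In knockout cells stretch left 1 call, the fall of Cxcl12, where 0.796% of all genes passed (0.587% lower). Cxcl12 had 135, 141 and 144 RPKM in Tsp1 KO static and 106, 97.8 and 108 in Tsp1 KO stretch, without overlap, and fell by 0.43 (SE 0.08, FDR 0.0313), with -0.34, -0.53 and -0.42 for the numbered libraries. The call passed narrowly: it was lost when any 1 library was left out other than WT stretch 1 or WT stretch 3, with FDR values between 0.0290 and 0.186 over all 12 omissions. Cxcl10 had 57.0, 41.9 and 67.9 RPKM in Tsp1 KO static and 49.4, 51.7 and 62.6 in Tsp1 KO stretch, which overlap, and its difference was -0.02 (SE 0.19, FDR 1.0). On unique reads it was -0.58 (SE 0.41, FDR 0.865), and -0.16 (SE 0.20, FDR 0.839) without Tsp1 KO stretch library 3. In normalized CPM Cxcl1 and Ccl20 also lay lower without overlap (7.14% of all genes did), at -0.27 (SE 0.18, FDR 0.912) and -0.83 (SE 0.42, FDR 0.753), and neither passed. With the libraries numbered 1 and 2 only, Cxcl1 passed here too (-0.31, FDR 0.0292). Ccl2 (0.15), Ccl7 (0.11), Cxcl16 (0.21) and Cx3cl1 (0.05) showed small positive differences that did not pass.

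Whether stretch acted differently in the 2 genotypes was tested as an interaction, and no gene passed at an FDR under 0.05 (0.0%). At an unadjusted p under 0.05 there were 336 genes (2.27%), 1 of them a ligand, and DESeq2 called 7 genes and no ligand. The ligand was Cxcl10, whose response to stretch was 1.12 lower in knockout cells than in wild-type cells (SE 0.27, unadjusted p = 0.00159, FDR 1.0). With the library number as a block the difference was -1.11 (SE 0.17, FDR 0.0862). On unique reads it was -1.69 (SE 0.59), and -1.26 (SE 0.28) without Tsp1 KO stretch library 3, and neither passed. The interaction of Cxcl12 was 0.15 (SE 0.11), that of Cxcl16 -0.24 (SE 0.20) and those of Ccl2, Ccl7, Cxcl1 and Cx3cl1 between -0.13 and 0.22, so the size of their stretch response was not shown to differ between the genotypes. These comparisons share groups with those above and are not independent of them.

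Introns, which carry unspliced RNA, held 30.1 to 38.2% of the Cxcl12 reads over all libraries, against at most 17.8% for the other ligands that passed a genotype test. Ccl5, with 38 to 68 gene reads in a library, had 20.4 to 84.4%, and Ccl20 and Cxcl2 had up to 36.4 and 50% from very few reads. For Cxcl12 the share was 31.1, 30.7 and 30.1% in WT static libraries 1 to 3, and 33, 33.3 and 34.0% in WT stretch. It was 35, 34.7 and 34.6% in Tsp1 KO static and 37, 36.7 and 38.2% in Tsp1 KO stretch. The 4 groups did not overlap, and how many of all genes did the same was not counted. WT static had the highest exon level and the lowest intron share, and Tsp1 KO stretch the lowest exon level and the highest intron share. Over all genes, in the same group order, the intron share was 15.9, 14.8, 16.2 and 16.3% in libraries numbered 1. It was 14.8, 15.4, 16.1 and 16.5% in those numbered 2, and 11.3, 10.8, 10.4 and 9.15% in those numbered 3. Libraries numbered 3, whose intron share over all genes was low, had the lowest Cxcl12 share of their group in both static groups and the highest in both stretched groups. A fit of the intron reads of 15577 genes, made after the shares were seen, called no difference for Cxcl12. Its intron reads gave -0.34 in WT stretch against WT static (SE 0.33, FDR 1.0), -0.12 in knockout cells with stretch (SE 0.32, FDR 1.0) and -0.23 in Tsp1 KO static against WT static (SE 0.33, FDR 0.802). In these 3 comparisons the exon difference lay within 1 standard error of the intron difference. In Tsp1 KO stretch against WT stretch the intron difference was -0.01 (SE 0.32, FDR 0.993) where the exon difference was -0.38, which is more than 1 standard error apart. With standard errors this wide, a fall of the size seen in exon reads was not detectable in intron reads by this fit. With the library number as a block no intron difference of Cxcl12 passed either. The values were -0.36 with stretch of wild-type cells (FDR 0.39) and -0.17 with stretch of knockout cells (FDR 0.615). Between genotypes they were -0.24 in static cells (FDR 0.197) and -0.05 under stretch (FDR 0.811).

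**Figure D4:**
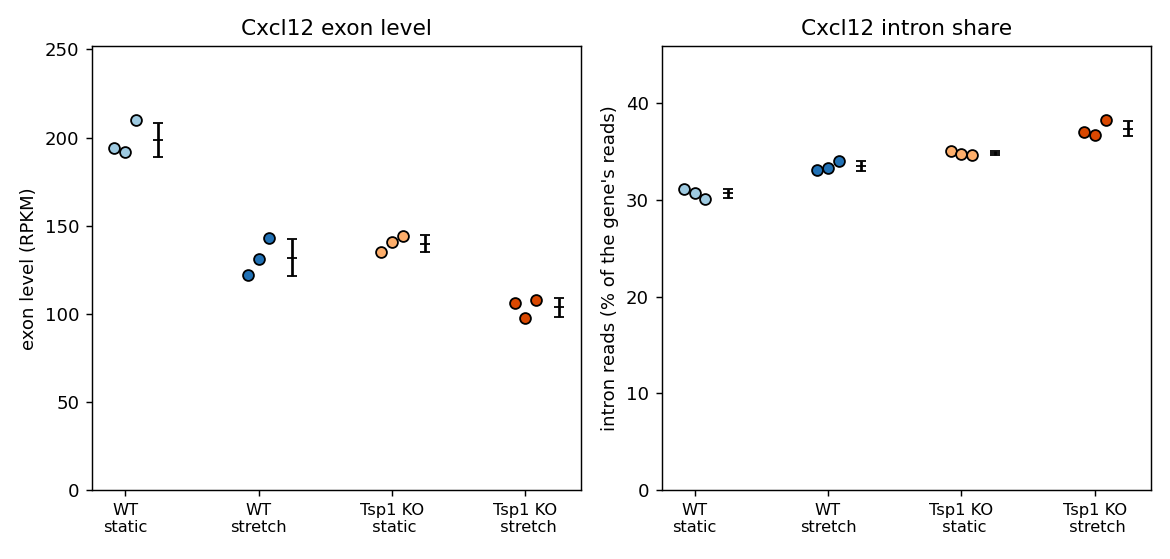
Cxcl12 in each library (points) with the mean and SD of 3 beside them: left, exon level in RPKM; right, intron reads as a percentage of the reads of the gene. Both axes start at 0; exon levels run from 97.8 to 210 RPKM and intron shares from 30.1 to 38.2%.

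In the same fit intron reads were sufficient for 8 of the 10 ligands, all but Ccl20 and Cxcl2. In static cells 5 of the 8 were higher in the knockout, Ccl2, Ccl7, Cxcl1, Cxcl16 and Cx3cl1, where 7.70% of genes passed. Under stretch 4 were, without Cxcl16, where 8.88% passed, and with the block 5 were again. For Cxcl1 the intron difference was 2.62 in static cells (SE 0.32, FDR 0.000279), for Ccl7 2.75 (SE 0.32, FDR 0.000175), for Ccl2 2.62 (SE 0.44, FDR 0.00267), for Cx3cl1 2.10 (SE 0.23, FDR 0.000111) and for Cxcl16 1.80 (SE 0.47, FDR 0.0343). The intron reads of these 5 ligands thus rose with the exon reads, from at most 866 in a library. Cxcl10, a gene with 0 to 26 intron reads in a library, gave 1.54 (SE 0.74, FDR 0.275).

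Counts of the gene lists are to be read against all tested genes. Between genotypes 12.1% were higher and 8.66% lower in static cells, and 11.9% and 8.73% under stretch. With the block these shares were 19.8% and 17.8% (37.6% in all) in static cells and 19% and 18.3% (37.3% in all) under stretch. With stretch the block called 2.73% higher and 3.64% lower in wild-type cells, and 1.41% higher and 3.02% lower (4.42% in all) in knockout cells.

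Other chemokine ligands were nearly silent. Of 26 in the table, 8 had enough reads to be tested, and only Cxcl11, a CXCR3 ligand like Cxcl10, rose with the knockout. Its level was 0.204 ± 0.0412 RPKM (SD, n = 3) in WT static and 0.701 ± 0.115 in Tsp1 KO static, a rise of 1.74 (SE 0.24, FDR 0.000287), and it rose by 1.65 under stretch (FDR 0.000325). Only 39.3% of the Cxcl11 reads were unique. With the block Cxcl6 passed as well under stretch, 2 of 8 where 37.3% of all genes passed. The median of the 8 was 0.58 static, against 0.01 over all genes.

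Among the receptors 21 were in the table and 7 were tested, of which Ackr3 and Ccr1 rose with the knockout in both conditions. Ackr3, the scavenging receptor of Cxcl12, was abundant: 81.4 ± 7.63 RPKM in WT static and 368 ± 42.9 in Tsp1 KO static (SD, n = 3), a rise of 2.16 (SE 0.10, FDR 6.15e-08). In the knockout the RNA of Cxcl12 was thus lower and that of Ackr3 higher, and a link between them was not tested. With stretch of knockout cells Cxcl12 fell by 0.43 while Ackr3 gave 0.01 (SE 0.09). Ccr1, a receptor of Ccl5 and Ccl7, was at 0.0599 ± 0.0323 RPKM in WT static and 0.372 ± 0.108 in Tsp1 KO static (rise 2.54, SE 0.52, FDR 0.00412). Under stretch 2 of the 7 receptors passed, where 20.6% of all genes did, and 4 with the block, where 37.3% did. The added ones were Ccr3, with at most 18 reads in a library, and Ackr4. Only 3.57% of the Ackr4 reads were unique, so most of them cannot be assigned to that gene. With the block Ackr3 also rose on stretch of wild-type cells (0.30, FDR 0.00931).

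Genes of the IL-1, TNF and NF-kB pathway were higher in the knockout more often than lower: 15 of 31 tested rose and 1 fell in static cells (18 and 1 with the block), and 16 rose and 1 fell under stretch (20 and 1 with the block). Over all genes 12.1% rose in static cells, 19.8% with the block, and 11.9% under stretch, 19% with the block. The median log2 fold change of the 31 was 0.43 in static cells, against 0.01 over all genes. Il1rn, which blocks the IL-1 receptor, had 5.19 ± 0.824 RPKM in WT static and 123 ± 12.3 in Tsp1 KO static, and Tlr2, which senses bacterial lipopeptides, had 1.59 ± 0.347 and 39.2 ± 3.92 (SD, n = 3). They rose by 4.54 (SE 0.21, FDR 6.85e-08) and 4.61 (SE 0.15, FDR 6.61e-09). Nfkbiz (2.72), a nuclear NF-kB cofactor, and the cytokine Lif (2.16) rose as well, and so did the NF-kB inhibitors Nfkbia (1.76) and Tnfaip3 (1.98) and the adhesion molecules Icam1 (1.35) and Vcam1 (1.37). The 1 that fell was the cytokine Il6 (-1.98), named because the count is 1.

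Of 27 interferon response genes tested, 20 rose and none fell in static knockout cells (20 and 0 with the block), and 15 rose and none fell under stretch (18 and 0 with the block). The shares of all genes that rose were the same as for the pathway list. The median of the list was 0.93 in static cells, against 0.01 over all genes. The antiviral genes Mx2 (3.03, SE 0.26, FDR 7.40e-06), Oas1a (2.93, of whose reads 73.8% were unique), Rsad2 (2.90) and Gbp5 (2.74) had the largest differences. With stretch few of either list passed. Of the pathway genes 1 did, the fall of Icam1 in knockout cells (with the block 2 rose and 2 fell in wild-type cells, and 1 rose and 1 fell in knockout cells). Of the interferon genes none did, although with the block 3 rose in wild-type cells.

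Other lists held genes that set how long chemokine mRNAs last, or how their proteins are cut and held. Of 12 genes listed for AU-rich element or other inflammatory mRNA decay, 5 rose and 1 fell in static cells (6 and 3 with the block). Under stretch 4 rose and 2 fell (5 and 3 with the block). Of all genes 20.8% passed in static cells and 20.6% under stretch (37.6% and 37.3% with the block). Zc3h12a, an RNase that degrades inflammatory mRNAs, rose by 2.23 (SE 0.13, FDR 4.16e-07), Mapkapk3 by 0.84, and Hnrnpd, an AU-rich element binding protein, fell by 0.53. Dusp1, a MAP kinase phosphatase, was the only gene of the 7 lists to rise with stretch in this fit, by 0.77 in wild-type (FDR 0.0101) and 0.61 in knockout cells (FDR 0.0286). With the block 3 genes of this list fell with stretch in wild-type and 2 in knockout cells, beside the rise of Dusp1. Of 9 proteases that shed or trim chemokines 4 rose and 1 fell in both conditions (5 and 2 with the block), where 12.1% of all genes rose and 8.66% fell in static cells (19.8% and 17.8% with the block). Mmp2, which inactivates Cxcl12 and Ccl7, rose by 2.01 (SE 0.11, FDR 2.10e-07), from 35.4 ± 4.10 to 145 ± 18.6 RPKM (SD, n = 3), Adam17 rose by 0.44, and Furin, a proprotein convertase, fell by 0.67. Dpp4 (1.53) and Cpm (1.80) rose from very low levels.

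Of 17 proteoglycans and heparan sulfate enzymes 3 rose and 4 fell in static cells (5 and 7 with the block), and 3 rose and 3 fell under stretch (5 and 7 with the block). Over all genes 12.1% rose and 8.66% fell in static cells, or 19.8% and 17.8% with the block, and with so few genes the count of those that rose was near that share. Sulf2, which removes sulfate groups from heparan sulfate, rose by 2.06 (SE 0.13, FDR 5.32e-07), and the cell surface proteoglycans Sdc2 (-0.85) and Sdc3 (-0.62) and the chain-elongating enzyme Ext2 (-0.55) fell. The list's median was -0.01. With stretch none passed, while with the block Ext1 rose in wild-type cells and Sdc4, Gpc6 and Sulf1 fell in knockout cells.

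**Figure D5:**
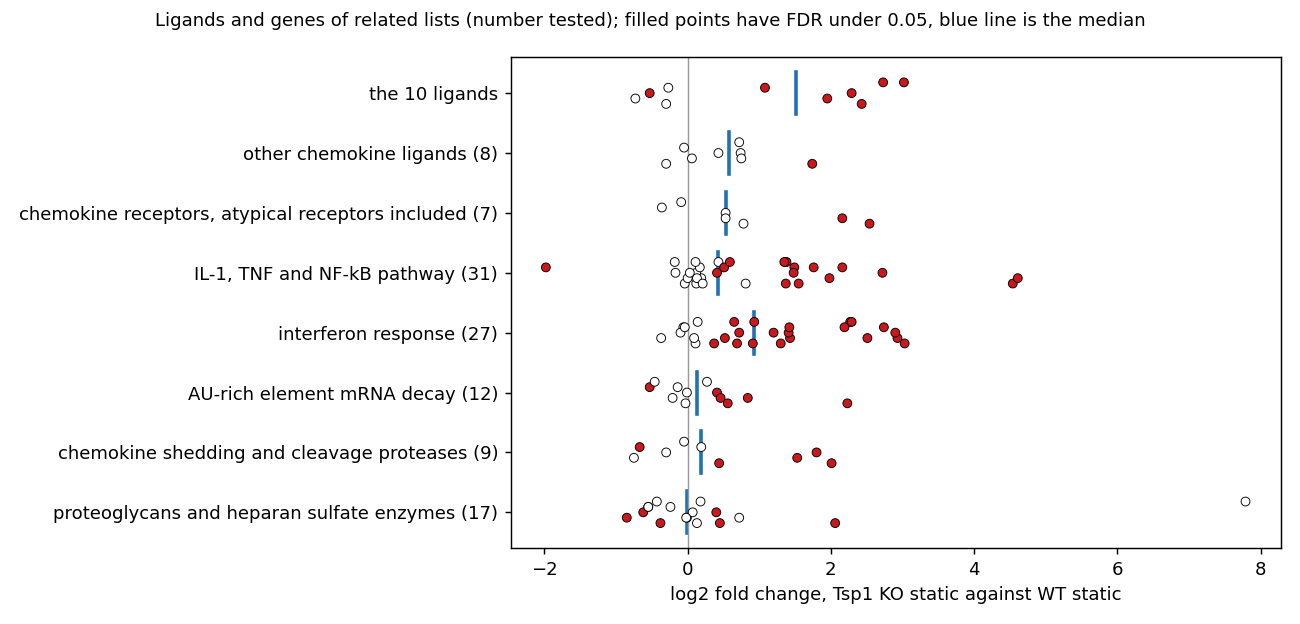
Log2 fold change of Tsp1 KO static against WT static for the 10 ligands and the tested genes of 7 related lists (number tested in brackets); each point is a gene, filled where FDR was under 0.05, and the blue line is the median, which was 1.52 for the ligands, 0.93 for the interferon list and 0.43 for the IL-1, TNF and NF-kB list. The open point at the far right is Ndst2, which had 0 reads in WT static and no unique reads.

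Markers of other cell types moved with the genotype too, and their part in the chemokine differences was not tested. The 7 fibroblast markers summed to 133 to 160 RPKM in WT static and 314 to 332 in Tsp1 KO static, and to 137 to 138 and 262 to 289 under stretch. In static cells 2 of them rose, Col14a1 (4.41) and Lum (0.91), and 1 fell, Pdgfra (-0.62), with 3 higher and 2 lower with the block, and under stretch 3 rose and 2 fell (4 and 2 with the block), while Dcn and Dpt stayed below 1 RPKM in every library. The 8 mesothelial and epithelial markers summed to 13.5 to 17.5 RPKM in WT static and 26.5 to 34.4 in Tsp1 KO static, and to 12.3 to 15.9 and 20.0 to 29.5 under stretch. Of the 6 tested, 5 rose static (6 with the block) and 4 under stretch, with Lrrn4 (2.99) at the head, although Krt18, Krt19, Cdh1 and Epcam stayed below 1 RPKM in every library. The smooth muscle markers summed to 2270 to 2960 RPKM in WT static and 1860 to 2600 in Tsp1 KO static, which overlap. Under stretch they summed to 2630 to 3450 in wild-type and 1560 to 2350 in knockout cells, without overlap. Of these 10, 3 rose in static cells, Myocd (2.19, FDR 0.0452), Mylk (0.90) and Smtn (0.69), and 2 fell, Acta2 (-0.79, FDR 0.000412) and Lmod1 (-0.71), with a median of 0.20 (4 and 3 with the block). Under stretch Smtn (0.38) rose and Actg2 (-1.43), Acta2 (-1.31), Lmod1 (-1.18) and Cnn1 (-1.12) fell (2 and 5 with the block). Leukocyte markers, the usual other source of chemokines, summed to 10.3 to 14.4 RPKM in WT static and 12.1 to 16.5 in Tsp1 KO static, nearly all of it Cd14. Of the 5 tested, Spi1 rose in static cells (1.00, FDR 0.0422), from 0.273 to 0.563 RPKM, and none passed under stretch (Cd14 with the block). The endothelial marker Tek fell in static cells (-1.11, FDR 0.00387), from 1.45 to 0.680 RPKM, and gave -0.23 under stretch (FDR 0.574). With stretch of wild-type cells Cnn1 rose (0.75, FDR 0.0347) and the fibroblast marker Scara5 fell (-0.57, FDR 0.0209), and with stretch of knockout cells Lmod1 (-0.51) and Scara5 (-0.52) fell. With the block Tagln rose and Tek, Col14a1 and Pdgfra fell in wild-type cells too, and 3 more smooth muscle, 2 more fibroblast and 3 mesothelial and epithelial markers fell in knockout cells.

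The genes whose log2 level was most like that of Cxcl12 over the 12 libraries were Khdrbs1 (Pearson r = 0.959), LOC102555457 (0.954) and Stom (0.952). Those most like Ccl2 were Tlr2 (0.998), Ackr3 (0.997) and Crip1 (0.996), and those most like Cxcl1 were Stap2 (0.997), Dusp6 (0.996) and Xdh (0.996). The libraries fall into groups by genotype, so these values chiefly rank genes by the shape of the group differences and carry no test. Khdrbs1, for example, had 68.7, 57.2, 58.0 and 52.1 RPKM in WT static, WT stretch, Tsp1 KO static and Tsp1 KO stretch, a smaller range than that of Cxcl12 in the same order.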

How the data were processed

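Reads were paired-end, 36 bases long, from a directional poly(A) library kit, per the labels' protocols. Per the labels' protocols the authors mapped them to Rnor_6.0 and quantified annotated genes with CLC Genomics Workbench 12.0. The deposited table holds, per gene and library, whole-number counts of total and unique exon reads, of gene, intron and exon-exon reads, and RPKM values (reads per kilobase scaled to depth, by the authors). It also holds, per the file headers, the exon length and the authors' signed fold change, a score below 0 where the gene was lower, and FDR p-value for each comparison.

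From the deposited counts of total exon reads, edgeR 4.0.16 (R 4.3.3) was run with TMM scaling, a minimum count of 10, 4 group means over all 12 libraries and Benjamini-Hochberg adjustment over 14825 genes. Calls were made at an FDR under 0.05. RPKM gave levels. Unique reads were counted beside total reads because reads shared with near-identical copies cannot be assigned. The fit was tested on simulated data. Alternatives were unique reads, other scalings, no filter, DESeq2 1.42.0, the number block, fewer groups and omitted libraries.

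Same-numbered libraries of different groups deviated together (r of 0.16 to 0.23 for number 1, 0.12 to 0.26 for number 2 and 0.40 to 0.56 for number 3, over 6 pairs each). The numbers were used as a block from this check, not from the labels. Libraries of different number gave -0.4 to 0.29 over 36 pairs, a range that holds the values of numbers 1 and 2. Only number 3 stood apart, so the check cannot show that libraries numbered 1 and 2 are paired. The block values carry that limit. Block values are given beside the calls of ligands and the counts of lists that they change. The ligands, gene lists and motifs were chosen with earlier results of these data known. All 10 ligands are named, and of each list up to 4 genes with the largest absolute fold change among those passing in any of the 4 pairwise comparisons, or else the 2 with the highest mean RPKM. For the 3 most abundant ligands the 3 genes of highest correlation are named. Other genes named were chosen after their values were seen. The intron fit and 2 settings on unique reads were added after seeing the data. Intervals for depth were not needed, since every comparison rests on 3 libraries a group. Promoters came from RefSeq, build GRCr8.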

Additional observations from a re-analysis of the deposited data

How the results depend on the processing

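Of the 10 ligands, 7 passed between genotypes in static cells under every alternative run, leave-one-out included. Between stretched genotypes 7 passed, 6 with unique reads (Cxcl10 0.36) or unique reads and block, and 6 to 7 when 1 library was left out. With stretch of wild-type cells 2 passed, against 3 with the replicate block, 1 with unique reads, 1 with upper quartile scaling, 4 with libraries numbered 1 and 2 only and 0 with only the groups compared, which leaves fewer samples to estimate spread. Leave-one-out gave 0 to 2. With stretch of knockout cells 1 passed, 1 with the replicate block, 0 with upper quartile scaling, no low-count filter, only the groups compared, or unique reads without Tsp1 KO stretch library 3, 2 with libraries numbered 1 and 2, and 0 to 1 in leave-one-out. The interaction stayed at 0 ligands.

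Over all genes the block called 944, 656, 5569, 5531 and 2 genes in the 2 stretch, the 2 genotype and the interaction comparisons, against 110, 118, 3085, 3056 and 0. DESeq2 called 340 and 287 and libraries numbered 1 and 2 alone 528 and 439 in the stretch comparisons, and only the groups compared gave 10 and 0.

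Directions turned only for uncalled values near 0 or from few reads; the cause was not tested. With libraries numbered 1 and 2, Cxcl10 in stretched knockout cells was 0.04, and the interactions were 0.03 for Ccl20, 0.13 for Cxcl1 and 0.87 for Cxcl2. The Cxcl1 interaction was 0.01 with unique reads, 0.02 with the block added and 0.01 with upper quartile scaling. Leave-one-out ranges crossed 0 for the wild-type stretch differences of Ccl5 (-0.04 to 0.49), Ccl7 (-0.36 to 0.03) and Cx3cl1 (-0.10 to 0.07), for the knockout stretch differences of Ccl5 (-0.20 to 0.61), Cxcl2 (-0.60 to 0.95), Cxcl10 (-0.17 to 0.09) and Cx3cl1 (-0.04 to 0.11), for the static genotype differences of Ccl20 (-0.52 to 0.05) and Cxcl2 (-0.96 to 0.56), and for the interactions of Ccl5 (-0.44 to 0.38), Cxcl1 (-0.16 to 0.28), Cxcl2 (-1.25 to 0.30) and Cx3cl1 (-0.02 to 0.15). Depth limits 3 ligands, with at most 51 exon reads in a library for Ccl5, 23 for Ccl20 and 14 for Cxcl2.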
